A study of Mus musculus with 4 samples.

Results

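The genes described here are 29 mouse genes that carry out or follow somatic mutation and DNA break repair, taken by name from a list. All 29 symbols were found once among the 32285 genes of a splenic B cell library, and the same 29 were read in a CD4+ T cell library for contrast. Each library held 4 pools of spleen cells marked by hashtag antibodies: KO day 4, control day 4, KO day 0 and control day 0. KO mice were made for loss of Il2rb, a chain shared by cytokine receptors, with a Cre recombinase expressed in B lineage cells, and the hashtag text calls the controls Cre. The labels print the same genotype for both, C57BL/6NRj with a heterozygous Cre and Il2rbfl/fl, which leaves the hashtag text as the only source of genotype. Day 4 pools came 4 days after sheep red blood cells were injected into the abdomen, and the labels give the other pools as day 0, without saying whether those mice were injected. Each group was 1 pool, and no label states the number, age or sex of its mice.

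B cells mutate their immunoglobulin genes in germinal centers of the spleen and lymph nodes. Cytosine is deaminated to uracil in single-stranded DNA. Uracil is then removed by a glycosylase and repaired through an abasic site, or the mismatch is recognised, a stretch of the strand is removed and error-prone polymerases fill the gap. During class switching the same lesions become double-strand breaks, which are joined by non-homologous end joining. Most of these proteins also serve ordinary DNA replication and repair in any dividing cell, so division and germinal center identity were compared separately.

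Promoter sequences are shown for members chosen by their ratio between dividing and non-dividing B cells, since the list mixes genes that move with division and genes that do not. The sequences are those of RefSeq on GRCm38.p6, from 250 bases before to 50 bases after the annotated start, and 22 of the 29 members had an entry. Capitals mark any of 4 motifs searched on both strands: the E2F site (TTTGGCGC, TTTCGCGC, TTTCCCGC or TTTGGCGG), the CCAAT box (CCAAT), the cell cycle homology region (TTTGAA) and the E-box (CACGTG). The 4 highest ratios among members with an entry belonged to Lig1, Ung, Hmces and Fen1, and the promoters of Lig1 and Fen1 are the first of 3 and 2 entries.
Lig1: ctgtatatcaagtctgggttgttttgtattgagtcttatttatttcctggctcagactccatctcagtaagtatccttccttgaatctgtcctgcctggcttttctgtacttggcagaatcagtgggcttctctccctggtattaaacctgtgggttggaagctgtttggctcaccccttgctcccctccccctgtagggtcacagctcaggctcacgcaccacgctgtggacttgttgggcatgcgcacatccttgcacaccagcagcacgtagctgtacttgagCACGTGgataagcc
Ung: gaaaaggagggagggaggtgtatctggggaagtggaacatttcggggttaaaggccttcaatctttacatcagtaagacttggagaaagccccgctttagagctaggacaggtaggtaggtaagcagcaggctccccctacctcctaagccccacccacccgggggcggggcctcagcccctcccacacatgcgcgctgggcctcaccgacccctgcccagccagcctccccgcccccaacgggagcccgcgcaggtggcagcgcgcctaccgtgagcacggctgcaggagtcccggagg
Hmces: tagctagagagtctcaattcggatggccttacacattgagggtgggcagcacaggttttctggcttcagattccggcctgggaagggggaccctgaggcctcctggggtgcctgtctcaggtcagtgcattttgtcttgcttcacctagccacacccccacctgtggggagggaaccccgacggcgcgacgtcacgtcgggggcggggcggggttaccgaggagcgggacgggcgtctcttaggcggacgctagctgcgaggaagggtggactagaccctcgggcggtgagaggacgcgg
Fen1: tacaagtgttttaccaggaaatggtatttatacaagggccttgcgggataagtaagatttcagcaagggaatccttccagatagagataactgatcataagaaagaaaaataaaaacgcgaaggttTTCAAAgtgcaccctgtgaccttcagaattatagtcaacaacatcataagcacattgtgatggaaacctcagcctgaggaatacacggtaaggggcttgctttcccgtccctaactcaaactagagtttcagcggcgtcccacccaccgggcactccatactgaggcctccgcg
The 2 members whose ratio was closest to 1 were Xrcc5 and Parp1.
Xrcc5: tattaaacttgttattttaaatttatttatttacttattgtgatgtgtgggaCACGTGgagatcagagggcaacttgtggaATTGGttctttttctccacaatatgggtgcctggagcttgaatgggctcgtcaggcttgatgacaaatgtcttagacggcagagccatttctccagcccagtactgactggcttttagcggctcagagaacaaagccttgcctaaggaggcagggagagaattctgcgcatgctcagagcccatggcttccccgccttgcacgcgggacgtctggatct
Parp1: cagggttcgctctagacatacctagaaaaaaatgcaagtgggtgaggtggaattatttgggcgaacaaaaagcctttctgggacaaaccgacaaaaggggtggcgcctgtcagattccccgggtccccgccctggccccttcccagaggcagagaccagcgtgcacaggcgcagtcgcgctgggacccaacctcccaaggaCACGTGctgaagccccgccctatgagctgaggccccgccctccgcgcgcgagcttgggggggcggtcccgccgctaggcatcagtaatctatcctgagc
Apex1 was chosen after its values were seen, because it was high in Myc-high cells and its promoter holds 3 E-boxes, a count of 3 or more that 24 of 27025 promoters (0.0888%) reach.
Apex1: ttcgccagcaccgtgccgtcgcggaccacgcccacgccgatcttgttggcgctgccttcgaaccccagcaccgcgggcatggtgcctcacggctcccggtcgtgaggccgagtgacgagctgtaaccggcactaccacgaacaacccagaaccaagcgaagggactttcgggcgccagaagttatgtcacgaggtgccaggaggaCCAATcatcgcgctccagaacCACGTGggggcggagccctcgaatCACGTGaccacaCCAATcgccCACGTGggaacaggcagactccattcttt
An E2F site was found in 2 of 22 member promoters, against 2.42% of 27025 promoters, and both are shown as windows of 30 bases, chosen after the search.
Msh6: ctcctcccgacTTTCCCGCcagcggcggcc
Xrcc6: agggggtggaaGCGGGAAAtgcgagtgggc
The promoters lie at chr7:13276925-13277224, chr5:114130185-114130484, chr6:87913726-87914025, chr1:72307171-72307470, chr1:180568641-180568940 and chr14:50924699-50924998 on the plus strand and at chr19:10204344-10204643 on the minus strand, and the windows at chr17:87975054-87975083 for Msh6 and chr15:82016312-82016341 for Xrcc6, both on the plus strand. The Xrcc6 window lies inside the GENCODE gene span of Xrcc6, downstream of that annotation's first base at 81987835. The printed promoters of Lig1 and Fen1 lie upstream of the GENCODE first bases, at 13277283 and 10204169, and do not contain them. The CCAAT box was found in 10 of 22 member promoters and 37.9% of all promoters, the cell cycle homology region in 1 of 22 and 18.1%, and the E-box in 6 of 22 and 7.24%. The printed promoters of Ung and Hmces held none of the motifs. A match is a string of letters only, and no binding was measured.

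Kept cells with 1 hashtag and lineage markers numbered 5236 in the B library (1857 KO day 4, 1301 control day 4, 982 KO day 0 and 1096 control day 0) and 7516 in the T library. Median depth in the B pools lay between 4653.5 and 6111 unique molecular identifiers (UMIs) per cell, and the pools summed to between 5624459 and 13479622 UMIs. Il2rb had 4 and 0 UMIs in KO day 4 and KO day 0 B lineage cells, against 9 and 0 in control day 4 and control day 0 B lineage cells. These counts are too low to check the genotype labels, and no label states which part of the gene is floxed. The T cell marker Cd3e had 0 UMIs in dividing and in germinal center-gated B cells. All 6 T cell markers together summed to 1.25 and 0.827 CPM there, and 13 markers of other lineages to 4.68 and 5.37 CPM. Of the kept cells with 1 hashtag, 57 carried a barcode found in both libraries, and 1 of them was a dividing B cell.

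In dividing over non-dividing B cells Exo1, Lig1, Ung, Hmces and Fen1 had the highest ratios of the members and Smug1 the lowest. Cells were called dividing with at least 5 UMIs over at least 3 of 31 mitosis genes, none of them a member, which gave 126 dividing and 5110 non-dividing B lineage cells. Levels are summed UMIs of a gene per 1000000 UMIs of all genes in the same cells (CPM). A member was counted with at least 20 UMIs on both sides together, and called higher or lower where the ratio of CPM was at least 1.5 or at most 1/1.5 and its 95% interval excluded 1. The intervals cover counting error only, and with 1 pool per group there was no test. All 29 members were counted, 14 were higher in dividing cells and 3 were lower, against 18.6% and 20.5% of 12079 genes. The median log2 ratio was 0.57 over the members and −0.12 over all genes.

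**Figure D1:**
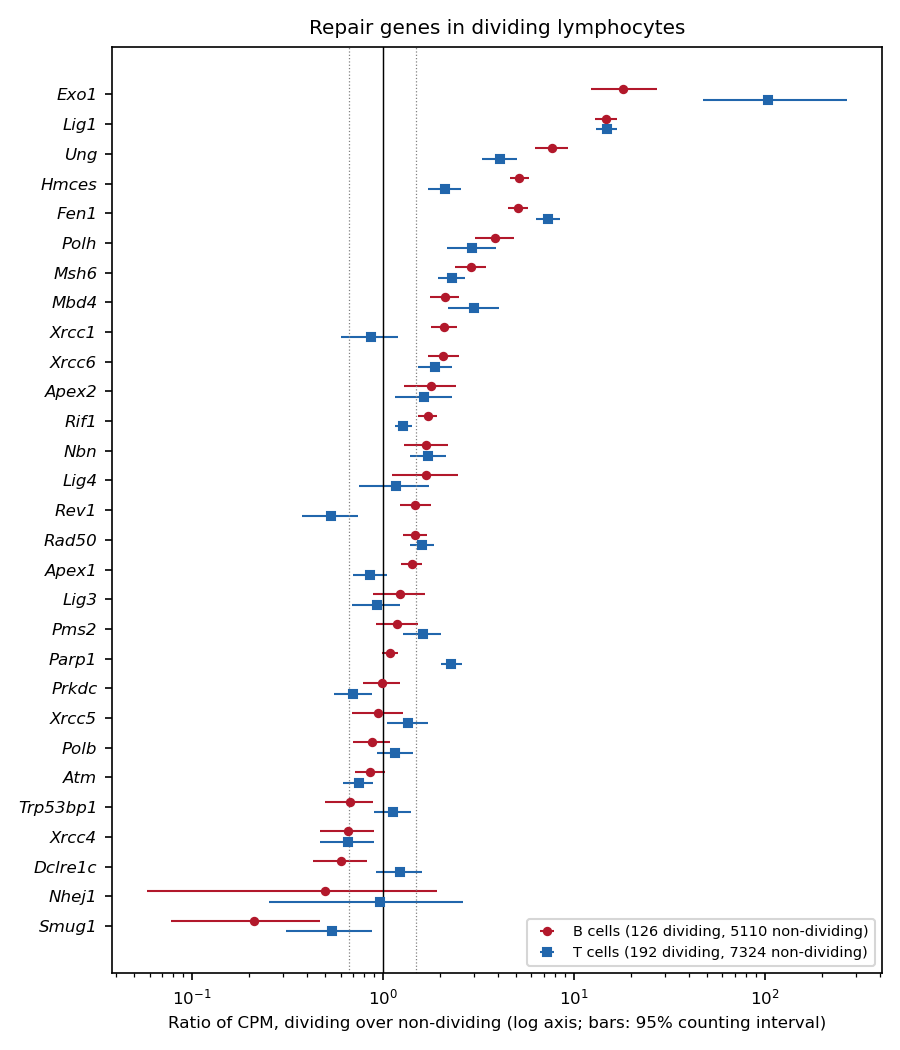
Ratio of CPM of each of the 29 members, dividing over non-dividing cells, on a log axis, in B lineage cells (red circles, 126 against 5110 cells) and T lineage cells (blue squares, 192 against 7324 cells). Bars are 95% counting intervals and dotted lines mark the fold of 1.5 in either direction. Exo1, Lig1, Ung, Hmces and Fen1 stand highest in B cells and Smug1 lowest, and Rev1 lies above 1 in B cells and below 1 in T cells.

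Lig1, the ligase that seals Okazaki fragments and finishes long-patch base excision repair, stood at 171, 168, 172 and 139 CPM in dividing cells of the KO day 4, control day 4, KO day 0 and control day 0 pools, against 11.4, 9.65, 11.5 and 14.1 CPM in non-dividing cells of the same pools. The pools did not overlap between dividing and non-dividing cells, and the summed ratio was 14.8 (12.9 to 16.9). Fen1, the flap endonuclease that trims the ends joined by Lig1, had 139, 123, 110.4 and 107 CPM in dividing cells in the same pool order, against 27.4, 23.6, 24.9 and 22.7 CPM in non-dividing cells, a ratio of 5.11 (4.53 to 5.76). Both genes were higher in each of the 4 pools taken alone.

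Exo1, the exonuclease that removes a strand after mismatch recognition, had the highest ratio, 18.1 (12.2 to 27.2). Its level was 26.3, 19.7, 24.5 and 32.8 CPM in dividing cells of the KO day 4, control day 4, KO day 0 and control day 0 pools, against 1.49, 1.51, 0.744 and 1.05 CPM in non-dividing cells. The day 0 dividing cells held only 6 and 4 of these UMIs, too few to count Exo1 in those pools alone. Msh6, which recognises mispaired bases, stood at 55.6, 34.7, 73.6 and 16.4 CPM in dividing cells, against 14.5, 17.7, 16.9 and 14.9 CPM in non-dividing cells, a ratio of 2.89 (2.39 to 3.48), with the control day 0 value resting on 2 UMIs and 1 cell holding 9 of the 18 UMIs in KO day 0. Pms2, which cuts the strand to be removed in mismatch repair, was not called at a ratio of 1.19 (0.915 to 1.52).

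The uracil and abasic site enzymes split. Ung, the glycosylase that removes uracil made by deamination and uracil copied into new DNA, stood at 56.3, 62.6, 40.9 and 41.0 CPM in dividing cells of the KO day 4, control day 4, KO day 0 and control day 0 pools, against 7.43, 7.90, 6.88 and 7.56 CPM in non-dividing cells. It was higher in all 4 pools and by 7.67-fold in the sum (6.29 to 9.34), but the control day 0 value was 5 UMIs, all in 1 of 8 dividing cells. Mbd4, a glycosylase for T and U opposite G at CpG sites, had 54.8, 40.1, 77.7 and 8.20 CPM in dividing cells and 22.7, 18.5, 28.3 and 24.1 CPM in non-dividing cells. Its summed ratio was 2.11 (1.76 to 2.52), and the control day 0 value, 1 UMI, was the exception. Smug1, a further uracil glycosylase, went the other way: 6 UMIs in 126 dividing cells gave 1.87 CPM, against 8.81 CPM in non-dividing cells, a ratio of 0.213 (0.0774 to 0.469).

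CPM is a share of all UMIs, and dividing cells held more UMIs than the rest (median 21977, against 4823 in follicular B-like cells), so a lower share need not mean fewer molecules per cell. Smug1 had 0.0476 UMIs per dividing cell and 0.0548 UMIs per non-dividing cell. The other 2 members that were lower in CPM were higher per cell. Dclre1c, the Artemis nuclease that opens hairpin ends, had 13.1 and 21.7 CPM in dividing and non-dividing cells, a ratio of 0.604 (0.431 to 0.825), but 0.333 and 0.135 UMIs per cell. Xrcc4, the scaffold that holds the end-joining ligase, had 13.1 and 19.9 CPM in dividing and non-dividing cells, a ratio of 0.657 (0.469 to 0.899), but 0.333 and 0.124 UMIs per cell.

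Hmces, a protein that crosslinks to abasic sites in single-stranded DNA and shields them, varied widely between pools. Dividing cells had 105, 163, 372 and 16.4 CPM in the KO day 4, control day 4, KO day 0 and control day 0 pools, against 31.3, 25.9, 26.4 and 29.4 CPM in non-dividing cells. The control day 0 pool, with 2 UMIs in 8 dividing cells, was the only one whose dividing cells were not above its non-dividing cells, and the summed ratio was 5.19 (4.64 to 5.81). Apex1, the main nuclease that cuts abasic sites, was not called at 1.41 (1.24 to 1.60). Its relative Apex2 stood at 19.0, 8.17, 20.4 and 49.2 CPM in dividing cells, against 9.58, 5.35, 8.55 and 11.2 CPM in non-dividing cells, a ratio of 1.79 (1.29 to 2.43), and 1 cell held 3 of the 6 UMIs in control day 0. Among the proteins of single-strand break repair, the scaffold Xrcc1 had 57.8, 57.8, 135 and 24.6 CPM in dividing cells and 28.6, 25.0, 39.4 and 30.8 CPM in non-dividing cells, a ratio of 2.09 (1.79 to 2.44). The ligase Lig3 (1.23), the break sensor Parp1 (1.09) and the gap-filling polymerase Polb (0.875) were not called.

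Of the translesion polymerases, Polh (polymerase eta, which writes mutations at A and T bases in germinal centers) was called. Polh stood at 29.2, 34.0, 53.2 and 16.4 CPM in dividing cells of the KO day 4, control day 4, KO day 0 and control day 0 pools, against 9.25, 6.86, 9.11 and 8.79 CPM in non-dividing cells, a ratio of 3.86 (3.05 to 4.85). Rev1, a deoxycytidyl transferase that also recruits other polymerases, lay just inside the fold at 1.48 (1.23 to 1.78). Rad50 at 1.48 (1.28 to 1.70) lay as close, and Trp53bp1 at 0.674 (0.50 to 0.891) was the nearest on the other side.

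Xrcc6, a subunit of the Ku dimer that caps broken ends, was higher in all 4 pools, with 43.9, 37.4, 57.2 and 73.8 CPM in dividing cells in that pool order and 19.7, 20.1, 23.2 and 21.4 CPM in non-dividing cells. The control day 0 value was 9 UMIs, 55.6% of them in 1 cell. Its ratio of 2.08 (1.72 to 2.50) was not shared by the other Ku subunit Xrcc5, at 0.948 (0.692 to 1.27), nor by Prkdc, the kinase that Ku recruits, at 0.986 (0.786 to 1.22). The difference between Xrcc6 and Xrcc5 was not tested. Lig4, the end-joining ligase, had 9.68 CPM in dividing and 5.73 CPM in non-dividing cells, a ratio of 1.69 (1.12 to 2.48) from 31 UMIs in dividing cells. Nhej1, the stabilising factor XLF, was nearly unread, with 2 UMIs in dividing and 40 in non-dividing cells.

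Rif1, which acts with Trp53bp1 to protect broken ends and also times replication, stood at 104, 102, 110.4 and 98.4 CPM in dividing cells of the KO day 4, control day 4, KO day 0 and control day 0 pools, against 58.3, 55.7, 66.2 and 65.2 CPM in non-dividing cells. All dividing pools lay above all non-dividing pools, at a ratio of 1.72 (1.52 to 1.93). Nbn, the subunit that brings the Mre11 complex to breaks, had 20.9 CPM in dividing and 12.4 CPM in non-dividing cells, a ratio of 1.69 (1.29 to 2.20). Atm, the kinase activated by that complex, was not called at 0.855 (0.711 to 1.02). Taken pool by pool, 14 of 28 counted members were higher and 1 lower, Smug1 on 2 UMIs in 1 dividing cell, in KO day 4 cells (35.4% of all genes called in either direction), and 11 of 28 higher and 2 lower in control day 4 cells (38.7%). In KO day 0 cells 11 of 27 were higher and 0 lower (19.6%), and in control day 0 cells, with 8 dividing cells, 5 of 27 higher and 0 lower (11.7%). With every cell thinned to 1500 UMIs, so that each weighed the same, the ratios of Apex2 (0.611), Lig4 (0.761) and Nbn (0.747) lay below 1 and that of Dclre1c (1.05) above it.

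Dividing cells were few but held much of the transcript of some members with high ratios. In the day 4 pools they held 10.1% of all B lineage UMIs in KO and 14.6% in control. They held 62.9% of Lig1 UMIs in KO day 4 and 74.8% in control day 4. For Exo1 the shares were 66.7% in KO day 4 and 69.0% in control day 4, for Ung 46.1% and 57.5%, and for Hmces 27.5% and 51.8%. A ratio below 1 in a pool is by construction the same as a share under that of all UMIs, as for Smug1 and Xrcc4.

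Within the cycle, the members leaned to S phase. Dividing B cells were split at the median share of 30 S-phase genes among their S-phase and mitosis UMIs (55.2%), neither list holding a member, into 63 S-led and 63 mitosis-led cells. Of 27 counted members, 12 were higher in S-led cells and 1 was lower, against 9.68% and 6.86% of 8728 genes, with a median log2 ratio of 0.58 over members and 0.07 over all genes. Ung was almost confined to S-led cells, with 180 of its 184 UMIs there, 101 CPM against 2.80 CPM in mitosis-led cells, a ratio of 36.3 (13.9 to 135). Msh6 followed with 64.8 and 22.4 CPM in S-led and mitosis-led cells (2.90; 1.94 to 4.43), and Apex1 with 118 and 48.3 CPM (2.44; 1.85 to 3.25). Thus Apex1, which was not called between dividing and non-dividing cells, differed inside the dividing ones.

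Lig1 had 216 CPM in S-led cells and 109.8 CPM in mitosis-led cells, a ratio of 1.97 (1.63 to 2.38). Fen1 had 158 and 91.6 CPM, a ratio of 1.72 (1.39 to 2.14). The remaining members that were higher, at ratios between 1.65 and 2.01, were Xrcc5, Rif1, Prkdc, Pms2, Nbn, Polb and Atm. Polh was the member that was lower, at 25.9 CPM in S-led and 41.3 CPM in mitosis-led cells (0.628; 0.418 to 0.940). Hmces (0.887; 0.739 to 1.07) and Mbd4 (0.806; 0.580 to 1.12), both well above non-dividing cells, were not called between the phases. After each cell was thinned to 1500 UMIs, only 4 members kept 20 UMIs and none was called, so the phase differences cannot be read at that depth.

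T cells, divided the same way at a median of 32.9% into 96 S-led and 96 mitosis-led cells, had 13 of 27 members higher in S-led cells and 1 lower, against 8.21% and 7.49% of all genes. Ung again lay almost wholly in S-led cells, with 125 UMIs against 1, a ratio of 107 with a counting interval that starts at 18.8. Exo1 had 30.2 CPM in S-led and 3.73 CPM in mitosis-led T cells (8.10; 3.5 to 23.0). Lig4 was lower in S-led T cells (0.379; 0.143 to 0.916). Whether B and T cells differ in these phase ratios was not tested.

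**Figure D2:**
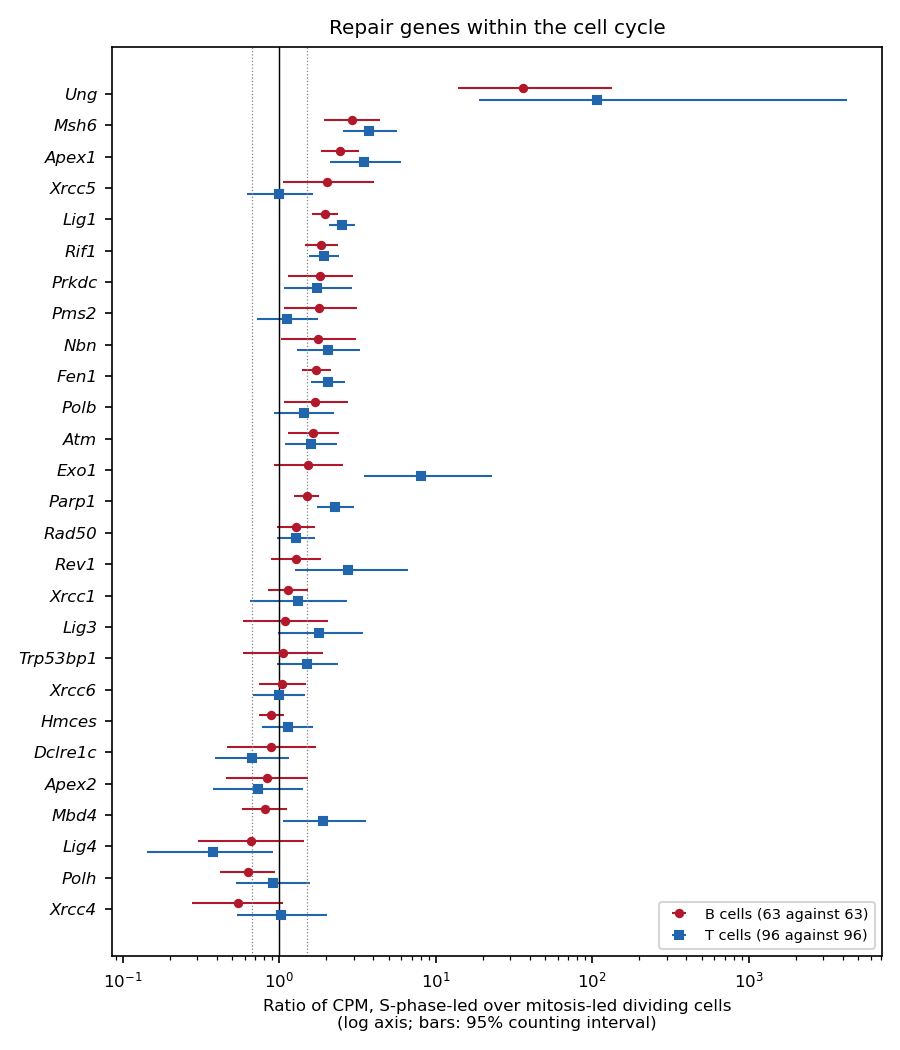
Ratio of CPM, S-led over mitosis-led dividing cells, on a log axis, for the 27 members counted, in B cells (red circles, 63 against 63 cells) and T cells (blue squares, 96 against 96 cells). Bars are 95% counting intervals and dotted lines mark the fold of 1.5. Ung stands far above the other members in both lineages, at 36.3 in B cells and 107 in T cells.

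Germinal center-gated cells were those with at least 3 UMIs over at least 2 of 9 germinal center genes, such as Mef2b and S1pr2. There were 123 of them, 51 in KO day 4, 50 in control day 4, 16 in KO day 0 and 6 in control day 0, and 59 were also dividing. Against 930 follicular B-like cells, a cluster of resting cells named from its markers, 14 of 28 counted members were higher and 2 were lower, where 20.1% and 24.2% of 10225 genes were (44.3% in either direction). Of the 14, 12 had also been higher in dividing cells, and Apex1 and Rev1 were added. The 59 gated dividing cells enter both comparisons and held 1692359 of the 2418765 UMIs of gated cells. The calls are therefore not separate observations, and the overlap over all genes is not given. Apex1 stood at 83.9 CPM in germinal center-gated and 34.0 CPM in follicular B-like cells (2.47; 2.0 to 3.05). Rev1 stood at 46.3 and 27.3 CPM (1.70; 1.31 to 2.20), and Nbn at 21.1 and 6.71 CPM (3.14; 1.98 to 5.05).

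In the 64 germinal center-gated cells that were not dividing, little of this was seen. Most of these 64 lay outside the cluster led by germinal center genes, which held 59 gated cells, 49 of them dividing. Clusters high in Samsn1 held 18 gated cells, 0 of them dividing. Plasma cell genes (7) summed to 9569 CPM in the 64 cells and 3134 CPM in gated dividing cells. The 64 are thus a mixed set, and their values do not describe non-dividing germinal center B cells alone. Of 27 counted members 3 were higher than in follicular B-like cells and 0 lower, against 5.77% and 12.8% of all genes. They were Ung, with 11.01 and 3.99 CPM (2.76; 1.05 to 6.61) from 8 UMIs, Apex1 with 59.2 and 34.0 CPM (1.74; 1.21 to 2.45), and Polb with 46.8 and 27.9 CPM (1.68; 1.12 to 2.46). Lig1, at a ratio of 0.553 (0.216 to 1.19), and Fen1, at 0.813 (0.431 to 1.42), were not called.

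Among dividing cells, the 59 that passed the germinal center gate differed from the 67 that did not in Hmces above all. Of 27 counted members 7 were higher in the gated cells and 0 lower, against 8.41% and 5.19% of 8728 genes. Hmces had 436 UMIs in the gated and 41 in the other dividing cells, or 258 and 27.1 CPM, a ratio of 9.50 (6.89 to 13.4). By pool, gated dividing cells had 179 CPM in KO day 4 (22 cells), 277 in control day 4 (27 cells) and 488 in KO day 0 (10 cells), and control day 0 held no such cell. The other dividing cells of KO day 4, control day 4, KO day 0 and control day 0 had 25.9, 25.6, 73.0 and 16.4 CPM, and non-dividing cells 31.3, 25.9, 26.4 and 29.4 CPM. Every gated dividing pool therefore lay above every other value, and dividing cells outside the gate were near the non-dividing level except for 5 UMIs in 4 KO day 0 cells. A UMI of Hmces was found in 46 of 59 gated and 22 of 67 other dividing cells.

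A single control day 4 cell held 28.7% of the 223 Hmces UMIs of that pool's gated dividing cells, and without the highest cell on each side the ratio was 11.1. Gated dividing cells were deeper (median 24992 UMIs, against 19014 in the other dividing cells). They were also less S-led, with a median S share of 50% against 59.1%. Within S-led cells alone the Hmces ratio was 9.01 (5.86 to 14.5), and within mitosis-led cells 10.1 (6.23 to 17.4).

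The other 6 members that were higher had smaller ratios. Lig4 had 13.6 CPM in gated and 5.29 CPM in other dividing cells (2.57; 1.11 to 6.64), on 23 and 8 UMIs. Mbd4 had 65.6 and 28.5 CPM (2.31; 1.61 to 3.36), with 68.9, 54.7 and 102 CPM in gated KO day 4, control day 4 and KO day 0 cells. Xrcc1 had 81.5 and 41.0 CPM (1.99; 1.46 to 2.73), Rev1 54.4 and 27.8 CPM (1.96; 1.34 to 2.89), Polh 42.5 and 21.8 CPM (1.95; 1.27 to 3.04) and Parp1 199 and 116 CPM (1.71; 1.42 to 2.07). The replication enzymes Lig1, Fen1 and Exo1 were not among them by this gate, but were higher when dividing cells were divided by cluster (below). Within S-led cells, 7 of 25 members were higher and 1 lower (9.26% and 4.97% of all genes), and within mitosis-led cells 5 of 24 higher and 0 lower (8.31% and 4.71%), and Hmces, Xrcc1 and Mbd4 were higher in both.

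**Figure D3:**
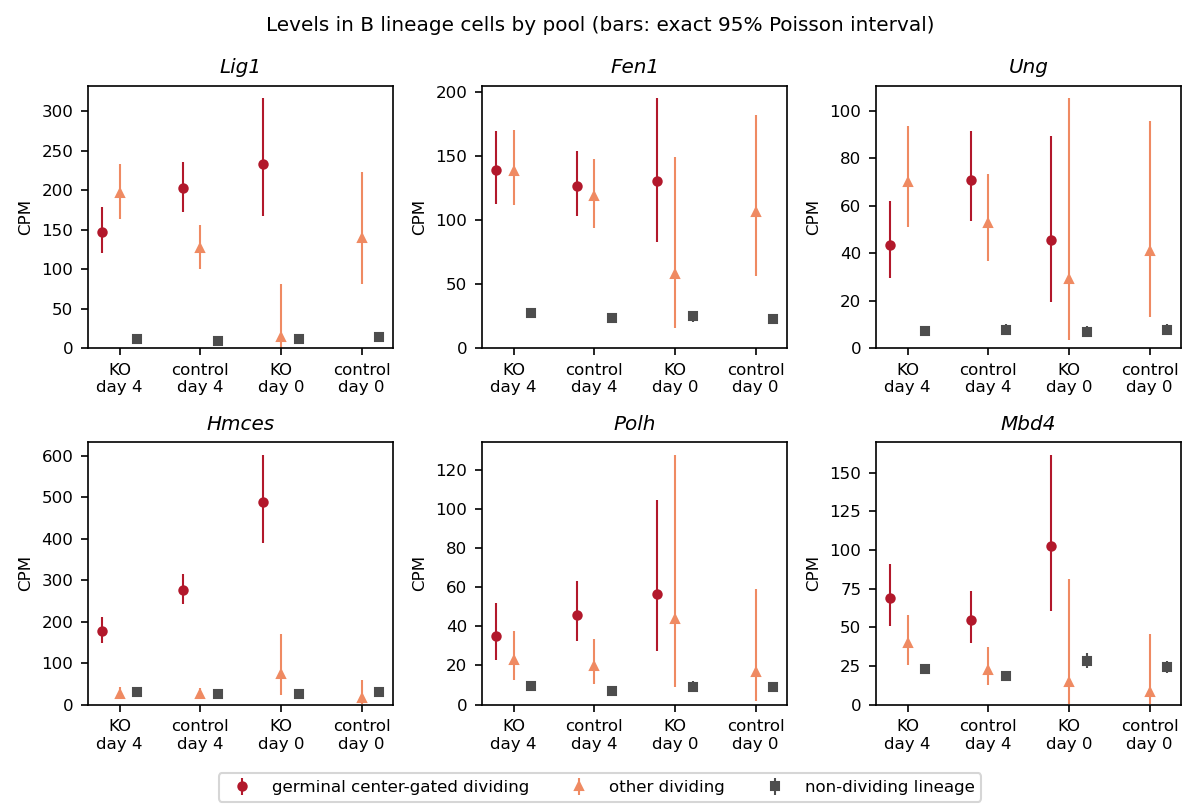
CPM of Lig1, Fen1, Ung, Hmces, Polh and Mbd4 in germinal center-gated dividing cells (dark red circles), other dividing cells (orange triangles) and non-dividing cells (grey squares) of the 4 B pools, with exact 95% Poisson intervals. Control day 0 had no germinal center-gated dividing cell. Lig1, Fen1 and Ung are high in both kinds of dividing cells of the day 4 pools, while Hmces is high in the gated ones, between 179 and 488 CPM.

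The gate and the clusters did not divide the cells alike: 31 of the 67 other dividing cells lay in the cluster led by germinal center genes, and 22 in an unnamed cluster led by Egr2 and Egr1. Taking the 80 dividing cells inside that germinal center-like cluster against the 46 outside it, a comparison added after the values were seen, 8 of 27 members were higher and 3 lower, against 11.9% and 7.99% of all genes. Hmces had 218 CPM inside and 10.4 CPM outside (21.0; 11.6 to 42.4), on 466 and 11 UMIs. Polh had 43.0 and 12.2 CPM inside and outside (3.51; 1.95 to 6.84), Mbd4 62.6 and 18.8 CPM (3.32; 2.07 to 5.61) and Xrcc1 79.4 and 28.3 CPM (2.81; 1.90 to 4.29). Lig1, Fen1, Exo1 and Msh6, not called by the gate, were the others that were higher inside. The members that were lower inside were Ung, with 41.6 and 89.5 CPM (0.464; 0.344 to 0.627), Apex1, with 74.2 and 112 CPM (0.662; 0.519 to 0.847), and Xrcc5, with 11.2 and 23.5 CPM (0.476; 0.260 to 0.869). By the gate, Ung was not called (0.974; 0.722 to 1.32). The median S share of the cycle UMIs was 46.9% inside the cluster and 68.6% outside it, and its part in these ratios was not tested.

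Other repair genes, 68 in 6 lists, were read in the same way. Of 66 counted in dividing over non-dividing B cells 35 were higher and 6 lower, against 18.6% and 20.5% of all genes. Homologous recombination, which copies a break from the sister strand, had 12 of 15 higher and 1 lower. Rad54b (93.3; 37.3 to 300.5) was among them, and the lower gene was Rad52 (0.600; 0.357 to 0.953). Mismatch repair had 7 of 11 higher, led by the clamp Pcna with 260.3 and 45.6 CPM in dividing and non-dividing cells (5.71; 5.24 to 6.23). Base excision had 5 of 11 higher and 1 lower, end joining 3 of 8 and 1, translesion synthesis 3 of 9 and 1, and break signalling 5 of 12 and 2. Among the last, Chek1 stood at 21.1 (14.4 to 31.3) and Atr, the kinase upstream of it, at 0.628 (0.483 to 0.805).

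Between germinal center-gated and other dividing cells, 7 of 60 other repair genes were higher and 2 lower, near the 8.41% and 5.19% of all genes. Neil1, a glycosylase for oxidised bases, had 165 CPM in gated and 16.5 CPM in other dividing cells (9.97; 6.61 to 15.7), on 279 and 25 UMIs. Its ratio was close to that of Hmces. The rest were Rad51c (3.08), the gap-filling polymerase Poll (2.57), the clamp loader subunit Rfc1 (2.02), Rev3l, the catalytic subunit of polymerase zeta that works with Rev1 (2.01), Msh3 (1.95) and Tdg (1.74). Neil3 (0.647) and Atrip (0.580) were lower.

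Myc-high cells, with at least 3 Myc UMIs and neither dividing nor germinal center-gated, numbered 234 (105 KO day 4, 64 control day 4, 38 KO day 0 and 27 control day 0), and 101 of them lay in the cluster led by Egr2 and Egr1. Against follicular B-like cells, 5 of 27 members were higher and 3 lower, where 9.08% and 12.4% of 9926 genes were. Apex1 stood at 95.9, 125, 83.2 and 111 CPM in Myc-high cells of the KO day 4, control day 4, KO day 0 and control day 0 pools, against 32.2, 48.9, 25.7 and 33.4 CPM in follicular B-like cells. The pools did not overlap, and the summed ratio was 3.05 (2.49 to 3.75). All non-dividing B cells together had 61.4 CPM of Apex1. Ung had 19.0 CPM in Myc-high and 3.99 CPM in follicular B-like cells (4.77; 2.73 to 8.65). By pool Ung stood at 15.2, 34.8, 16.0 and 0 CPM in Myc-high cells, against 5.78, 5.56, 2.41 and 2.84 CPM in follicular B-like cells, so the control day 0 pool did not share the direction.

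Nbn (2.25; 1.35 to 3.76), Lig3 (1.77; 1.11 to 2.82) and Xrcc5 (1.59; 1.06 to 2.36) were also higher in Myc-high cells, on 35 to 47 UMIs. Mbd4 stood at 17.3 CPM in Myc-high and 31.1 CPM in follicular B-like cells (0.557; 0.382 to 0.794), and was lower in all 4 pools. Lig1 had 10.4 and 17.4 CPM (0.596; 0.362 to 0.948), and Parp1 had 124 and 189 CPM (0.652; 0.569 to 0.746). All non-dividing B cells together, the reference for dividing cells, had 11.4 CPM of Lig1. Myc-high cells lay near that level, and the lower call holds against follicular B-like cells. The replication enzymes Fen1 (1.15) and Exo1 (5 UMIs on each side) were not called or not counted. E-boxes were in the promoters of 3 of 4 members that were higher, 1 of 15 not called and 2 of 3 that were lower, counted among members with a promoter entry after the values were seen.

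Resting subsets differed from follicular B-like cells in a few members each. In 421 transitional B-like cells, the youngest B cells of the spleen, 6 of 27 members were higher and 0 lower (10.6% and 5.34% of all genes). Apex1 had 77.9 and 34.0 CPM in transitional and follicular B-like cells (2.29; 1.84 to 2.86), Xrcc6 41.0 and 18.5 CPM (2.22; 1.64 to 3.01), and Lig4 10.8 and 5.67 CPM (1.91; 1.05 to 3.44). Xrcc1 (1.90), Polb (1.86) and Dclre1c (1.75) completed the group.

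In 481 marginal zone B-like cells, 3 members were higher and 3 lower (6.81% and 12.3%, or 19.1% in either direction). Xrcc1 (1.89; 1.49 to 2.41), Nbn (1.80; 1.13 to 2.90) and Dclre1c (1.51; 1.14 to 2.01) were higher. Lig1 had 6.65 and 17.4 CPM in marginal zone and follicular B-like cells (0.382; 0.238 to 0.596), Parp1 103 and 189 CPM (0.542; 0.481 to 0.609) and Rif1 46.3 and 70.3 CPM (0.659; 0.548 to 0.790). Parp1 stood at 99.6, 106, 107 and 99.0 CPM in marginal zone B-like cells of the KO day 4, control day 4, KO day 0 and control day 0 pools, against 174, 173, 199.7 and 204 CPM in follicular B-like cells, with no overlap. In 111 B1-like cells Apex1 (1.55) and Nbn (2.29) were higher and Rif1 (0.655) and Parp1 (0.585) lower (7.05% and 8.49%). In 1135 cells of 2 Samsn1-high clusters found mostly in the day 4 pools, Apex1 (1.88), Lig3 (1.53) and Nbn (2.18) were higher and Lig1 (0.516) and Mbd4 (0.650) lower (3.24% and 9.56%). Nbn was thus higher than in follicular B-like cells in marginal zone, B1-like and Samsn1-high cells alike, all of them set against the same follicular B-like cells.

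Dividing cells made up a larger share on day 4 than on day 0, though in KO the intervals of the shares overlapped. In control, 5 of the 6 members that were higher on day 4, all but Lig3, were also higher in dividing cells. Each day 4 pool gave 52 of the 126 dividing cells, so these calls share cells. The same overlap over all genes is not given. Dividing cells made up 2.80% of B lineage cells in KO day 4 (2.10 to 3.66) and 1.43% in KO day 0 (0.782 to 2.38), and 4.00% in control day 4 (3.0 to 5.21) and 0.730% in control day 0 (0.316 to 1.43). In control, 6 of 29 members were higher on day 4 and 1 lower, against 5.34% and 5.82% of 11115 genes. Exo1 had 4.17 and 1.72 CPM on day 4 and day 0 (2.42; 1.20 to 5.42; 0.626 with cells thinned to 1500 UMIs), Lig1 32.8 and 16.7 CPM (1.96; 1.56 to 2.49) and Ung 15.9 and 8.26 CPM (1.92; 1.39 to 2.71). Hmces (1.58; 1.32 to 1.90), Fen1 (1.56; 1.28 to 1.91) and Lig3 (1.52; 1.11 to 2.11) followed.

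When dividing cells were left out, none of the 5 still counted was higher in control (1.96% of all genes, and 6.94% in either direction), and the ratio of Lig1 was 0.686 (0.499 to 0.945), that of Ung 1.05 and that of Hmces 0.883. Exo1, with 13 and 6 UMIs on day 4 and day 0, was not counted there. Apex2 was the member lower on day 4 in control, and it stayed so without dividing cells: 5.35 CPM on day 4 and 11.2 CPM on day 0 (0.475; 0.318 to 0.705; 4.99% of all genes lower). In KO, Exo1 alone was higher on day 4, with 4.01 and 1.78 CPM (2.25; 1.14 to 4.96), against 3.1% of genes higher and 3.25% lower, or 6.35% in either direction. Lig1 (1.49; 1.20 to 1.87) and Ung (1.48; 1.07 to 2.10) lay just inside the fold in KO. Without dividing cells no member was called in KO (1.78% and 3.05%). Whether the day ratios differ between the genotypes was not tested.

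**Figure D4:**
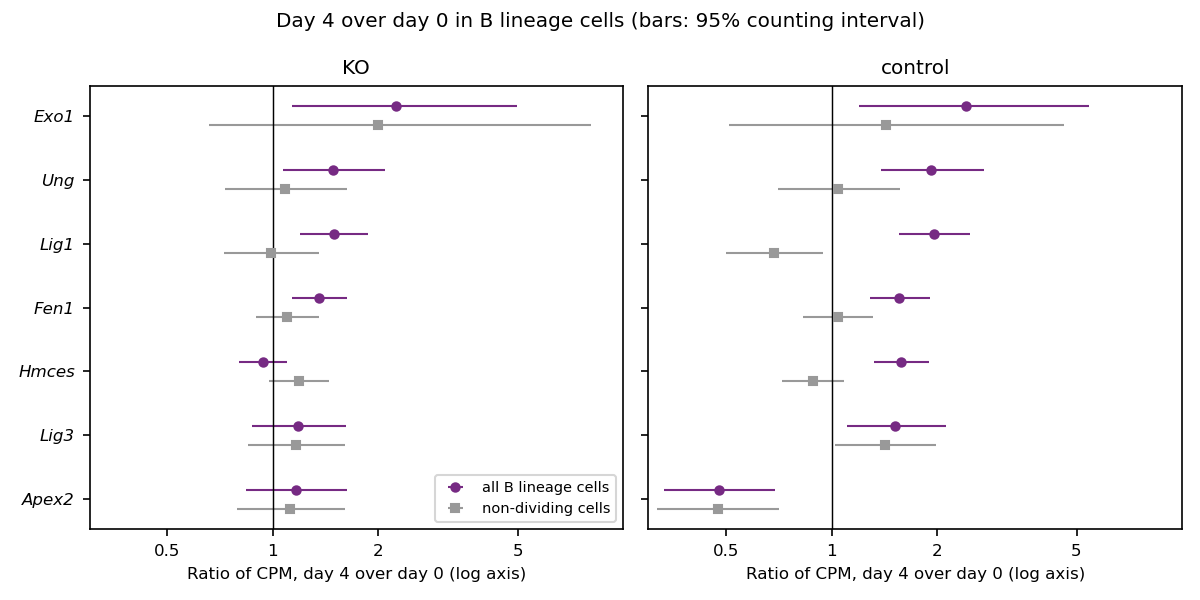
Ratio of CPM, day 4 over day 0, in KO (left) and control (right) B lineage cells, for the 7 members called in either genotype, on a log axis with 95% counting intervals. Purple circles are all B lineage cells and grey squares non-dividing cells. In control, Ung, Lig1, Fen1 and Hmces lie above 1 in all cells and at or below 1.05 in non-dividing cells, while Apex2 lies near 0.48 in both.

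Between genotypes, little differed. On day 0 none of 28 counted members was called between KO and control B lineage cells (3.99% of all genes in either direction). On day 4 Apex2 was the only one, at 10.5 CPM in KO and 5.76 CPM in control (1.83; 1.34 to 2.53), where 1.58% of genes were higher and 2.22% lower. Apex2 stood at 10.5, 5.76, 9.07 and 12.04 CPM in all B lineage cells of the KO day 4, control day 4, KO day 0 and control day 0 pools, so that control day 4 was the low pool. In non-dividing cells it had 9.58 CPM in KO and 5.35 CPM in control on day 4 (1.79; 1.26 to 2.58). In germinal center-gated cells it had 16.3 and 5.54 CPM (2.94; 1.09 to 9.17), on 16 and 6 UMIs, where 4.6% of genes were higher. The control day 4 pool enters both the day ratio and the genotype ratio of Apex2, so these are not separate observations. Apex2 is on the X chromosome and overlaps Alas2 and Pfkfb1 on the opposite strand, and no label states how reads were assigned by strand.

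Among the 52 dividing cells of each genotype on day 4, Msh6 had 55.6 CPM in KO and 34.7 CPM in control (1.60; 1.11 to 2.33), Apex2 19.0 and 8.17 CPM (2.33; 1.13 to 5.06) and Hmces 105 and 163 CPM (0.645; 0.521 to 0.796), where 4.95% of genes were higher and 3.47% lower. One control cell held 26.7% of the 240 Hmces UMIs of that group. Without the highest cell on each side its ratio was 0.751, inside the fold, and with cells thinned to 1500 UMIs it was 1.10. The S share of the summed cycle UMIs also differed, 48.4% in KO and 59.2% in control, and its part in these ratios was not tested.

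Dividing T cells shared much of the pattern. With 192 dividing and 7324 non-dividing T cells, 14 of 29 members were higher and 3 lower (21.3% and 13.6% of 12526 genes). Of the 14, 11 had been higher in dividing B cells. The overlap over all genes is not given, so the 11 cannot be read as particular to the members. Lig1 stood at 153, 180.0, 222 and 72.4 CPM in dividing T cells of the KO day 4, control day 4, KO day 0 and control day 0 pools, against 10.1, 10.3, 14.8 and 11.7 CPM in non-dividing T cells. Its ratio was 14.9 (13.1 to 16.9), and the interval overlapped that in B cells. Exo1 (104; 47.8 to 269.9) rested on 7 UMIs in non-dividing T cells. Parp1 (2.29; 2.01 to 2.60), Pms2 (1.61; 1.28 to 2.02) and Rad50 (1.60; 1.39 to 1.85) were higher in dividing T cells and not called in B cells.

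The ratio of the B ratio to the T ratio, with an approximate 95% interval from the 4 counts, excluded 1 above it for 7 of 29 members and below it for 6. The same share over all genes is not given, so these counts cannot be read as particular to the members. The median S share of the cycle UMIs was 55.2% in dividing B cells and 32.9% in dividing T cells. Its part in these ratios was not tested. Above 1 were Rev1 (2.77; 1.91 to 4.03), Hmces (2.45; 1.96 to 3.07), Xrcc1 (2.42; 1.69 to 3.49), Ung (1.88; 1.42 to 2.48), Apex1 (1.65; 1.30 to 2.09), Prkdc (1.41) and Rif1 (1.34). Below 1 were Exo1 (0.174; 0.0730 to 0.415), Parp1 (0.478; 0.408 to 0.559), Dclre1c (0.491), Trp53bp1 (0.596), Fen1 (0.697) and Mbd4 (0.703). For Lig1 it was 0.992 (0.828 to 1.19), so a difference beyond these limits was not seen. Pms2, at 0.736 (0.528 to 1.03), and Rad50, at 0.921 (0.754 to 1.13), were called in T cells alone, but their intervals also included 1.

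In T cells, outside the lineage in which Cre is expressed, Exo1 (30 UMIs, against 0), Lig1 (2.25; 1.70 to 3.04) and Xrcc6 (1.51; 1.14 to 2.04) were higher on day 4 than on day 0 in control (7.37% of genes higher). In KO, Exo1 (39 UMIs, against 1) and Ung (1.60; 1.15 to 2.26) were (4.92%). With cells thinned to 1500 UMIs the Lig1 day ratio in control was 0.867. KO and control T cells differed in Lig1 on day 0 (1.55; 1.12 to 2.16; 2.16% of genes higher) and in no member on day 4 (3.01% of genes in either direction). Of the 120 KO UMIs of Lig1 on day 0, 30 came from 10 dividing cells. That ratio was 1.48, inside the fold, without the highest cell on each side, 1.26 in non-dividing cells and 0.940 with thinned cells. Without dividing cells no counted member was called in any of these 4 comparisons, which share pools with each other. Exo1, with at most 4 UMIs on a side, was counted in none. Of all genes, 6.95% were called in either direction between days in control and 4.33% in KO. Between genotypes the shares were 3.12% on day 0 and 3.11% on day 4, so the absence of calls is not particular to the members. Among dividing T cells on day 4, Xrcc4 (2.15; 1.03 to 4.91) and Xrcc5 (1.80; 1.06 to 3.18) were higher in KO and Apex2 was lower (0.421; 0.200 to 0.854), where 3.4% of genes were higher and 1.78% lower. The direction of Apex2 was opposite to that in dividing B cells.

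Between non-dividing B cells and non-dividing T cells, 8 of 29 members were higher in B and 0 lower, against 23.1% and 20.8% of 13712 genes, so the share that was higher, 27.6%, is near that of all genes. Parp1 had 146 CPM in B cells and 35.3 CPM in T cells (4.13; 3.90 to 4.39), Mbd4 22.7 and 5.24 CPM (4.34; 3.72 to 5.08) and Xrcc1 29.8 and 12.6 CPM (2.37; 2.12 to 2.64). Exo1 (7.46), Fen1 (2.13), Apex1 (1.80), Hmces (1.75) and Dclre1c (1.58) were the others. Between dividing B and dividing T cells, 8 of 28 were higher in B and 1 lower (16.7% and 21.0%), led by Xrcc1 with 62.4 and 10.9 CPM (5.74; 4.04 to 8.34), Hmces with 149 and 34.7 CPM (4.30; 3.51 to 5.29) and Rev1 with 41.8 and 10.9 CPM (3.84; 2.66 to 5.67). The lower one was Trp53bp1 (0.635; 0.444 to 0.900). The lineages came from separate libraries, so library and lineage cannot be told apart. Dividing cells also differed in median S share, 55.2% in B and 32.9% in T cells, and its part was not tested.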

How the data were processed

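Spleen B cells and CD4+ T cells were read in 2 libraries of 5′ single-cell RNA, each with hashtag antibodies for 4 pools. The deposited matrices hold counts of UMIs per gene and cell, made by the authors with Cell Ranger 5.0.0 on mm10, per the submitters' processing notes. The cell filter asked for 200 genes or more and no more than 10% mitochondrial UMIs, and it passed 6218 of 6339 B-library and 9196 of 9307 T-library barcodes. HTODemux assigned the hashtags (Seurat 5.3.0, R 4.3.3, quantile 0.99). Cells with several hashtags, 568 in the B and 1007 in the T library, were removed as doublets, and no other doublet caller was run, so doublets within a pool remain. Cells were clustered with the Leiden method (scanpy 1.11.5, leidenalg 0.10.2, resolution 1.0) on 2000 variable genes without the members, other repair genes, receptors, immunoglobulin, ribosomal or mitochondrial genes. Clusters were named from markers, and 241 B-library cells of other lineages were left out. Dividing, germinal center and Myc-high gates used lists without members, and 26 B lineage cells lay 1 UMI under the mitosis gate, 58 under the germinal center gate and 188 under the Myc gate.

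UMIs were summed per group and given as CPM. Intervals of a ratio are exact conditional binomial ones (scipy 1.17.1), those of a level exact Poisson ones and those of a share exact Clopper-Pearson ones, at 95%, and cover counting error only. Each group was 1 pool, so no p-value was computed. The named genes were all 29 members, with other repair genes named where called. TMM scaling used edgeR 4.0.16. The counting was run on simulated counts with Poisson error alone, which is what the intervals assume. That run held no spread between cells or pools, so it cannot show how the intervals behave under such spread. The members and lists were chosen with earlier results of these data known. Gene positions were those of GENCODE vM21, in which 2 members overlap another gene on their own strand (Pms2 with Rsph10b, Rev1 with Gm37062) and 14 overlap one on the opposite strand. Some genes are not reported here.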

Additional observations from a re-analysis of the deposited data

Results flagged for a closer look

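Rev1 was marked because its ratio between dividing and non-dividing cells ran in opposite directions in the lineages: 1.48 (1.23 to 1.78) in B cells and 0.534 (0.375 to 0.740) in T cells, so that the B ratio was 2.77 times the T ratio (1.91 to 4.03). By pool, the B ratio was 1.38 in KO day 4, 1.45 in control day 4, 3.07 in KO day 0 and 0.552 in control day 0, the last from 2 UMIs in dividing cells. The T ratio was 0.534 in KO day 4, 0.531 in control day 4 and 1.04 in KO day 0, from 3 UMIs in dividing cells, and dividing T cells of control day 0 held 0 UMIs of Rev1. The intervals cover counting error only, and the difference was not tested over samples. Dividing B and T cells also differed in median S share, 55.2% and 32.9%, and its part in the Rev1 ratios was not tested. Rev1 overlaps Gm37062 on the same strand.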

How the results depend on the processing

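No paired analysis was possible because each group was 1 pool, and no replicate could be left out. Of 1140 recomputed ratios of called members, 1029 kept their direction within their interval, 92 moved beyond it and 19 changed direction. Counts are of members called in either direction, with the reported count in brackets. With a fold of 2, dividing over non-dividing B cells gave 11 (17), S-led over mitosis-led B cells 4 (13), germinal center-gated over other dividing cells 3 (7), Myc-high 3 (8), transitional 2 (6), marginal zone 1 (6), B1-like 1 (4), Samsn1-high 1 (5), control day 2 (7), dividing KO over control 1 (3), KO over control on day 4 0 (1), B over T 5 (8), dividing T 9 (17), T KO day 1 (2) and T KO over control on day 0 0 (1). With cells thinned to 1500 UMIs, counts were 9 for dividing B, 0 for S-led B (4 members counted), 5 for germinal center-gated over follicular (16), 2 for germinal center-gated over other dividing (4 counted), 0 for dividing KO over control (4 counted), 2 for Myc-high, 3 for marginal zone, 2 for B1-like, 9 for Samsn1-high, 4 for control day, 2 for KO day (1), 6 for dividing T, 1 for T control day (3), 0 for T KO day and 0 for T KO over control on day 0. In non-dividing cells, counts were 3 for germinal center-gated over follicular, 1 for control day, 0 for KO day, 0 for T control day, 0 for T KO day and 0 for T KO over control on day 0. The KO day count was 3 with TMM scaling, 2 with the stricter cell filter, 2 with hashtags by ratio and 3 without the top cell of each gene, a setting that also gave 0 for T KO over control on day 0. A minimum of 50 UMIs gave 1 for T KO day, and dividing cells inside over outside the germinal center-like cluster gave 11 (7).

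Thinning turned the ratios of Apex2 (0.611), Lig4 (0.761), Dclre1c (1.05) and Nbn (0.747) in dividing B cells, Pms2 (0.50) and Atm (0.833) in S-led cells, Xrcc4 (1.12) in germinal center-gated cells, Hmces (1.10) in dividing KO cells, Exo1 (0.626) in control day, Nbn (0.601) in dividing T cells, and Lig1 in T control day (0.867) and in T KO over control on day 0 (0.940). Non-dividing cells turned Msh6 (0.666), Lig1 (0.553), Lig4 (0.972) and Fen1 (0.813) in germinal center-gated cells, Lig1 (0.686) and Hmces (0.883) in control day, and Lig1 (0.880) in T control day. The thinned and non-dividing settings hold fewer UMIs or cells by construction, and beyond that the cause was not tested. TMM moved the median of all genes by −0.21 on the log2 scale in dividing T cells, −0.14 in transitional, 0.12 in Samsn1-high, 0.11 in marginal zone cells and 0.11 in control day. The hashtag and cell filter settings covered clustered cells only. Few dividing cells on day 0 and 1 pool per group limit every comparison.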
